A study of Mus musculus with 12 samples.

Results

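C-type natriuretic peptide (CNP) signalling was described through 7 genes of the 23358 rows of the deposited count table. They are the peptide gene Nppc, the processing protease gene Furin, the receptor genes Npr2, Npr1 and Npr3, and the cGMP-dependent kinase genes Prkg1 and Prkg2. The rows were taken by gene name. The set was proposed because Nppc was higher in the mutants of these same samples, so its difference between genotypes is a description here and carries no test. The other 6 genes were chosen by their place in the pathway. All 7 genes were among the 16190 that passed the filter on low counts.

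The tissue, taken at postnatal day 3, was mouse frontal bone, with which nasal bone and 2 sutures (coronal and frontonasal) were dissected. RNA was sequenced from 4 groups of 3 samples each: wild type C57BL/6, C57BL/6 mutants, wild type BALB/c and BALB/c mutants. The mutants carried 1 copy of the Crouzon allele Fgfr2 C342Y beside 1 normal copy. This is a germline allele. Mice with this allele model Crouzon syndrome, a disorder of premature suture fusion, and the series asked how the mutation acts on each background. Reads of the mutant and normal Fgfr2 alleles were counted together. The labels do not say that each sample came from a separate animal, so p-values measure only the spread between these samples. The run names in the labels put all C57BL/6 samples on 1 flow cell and all BALB/c samples on another, so strain and flow cell cannot be told apart.

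CNP is a secreted peptide cut from a longer precursor by furin. It acts in bone growth mainly through the receptor encoded by Npr2, a guanylyl cyclase that makes the messenger cGMP. Npr1 encodes the related cyclase for the atrial and brain peptides, and Npr3 encodes a receptor that has no cyclase and clears all of these peptides. In growth plate cartilage cGMP activates the kinase encoded by Prkg2, which restrains signalling downstream of FGF receptors and thereby opposes overactive ones.

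The stretch of genome next to the start of Nppc is shown because Nppc is the member whose level differed between genotypes in both strains. The 250 bases before its annotated start lie at chr1:86670574-86670823 on the minus strand of GRCm38.p6 (RefSeq), and 69.2% of them are G or C.
Nppc upstream: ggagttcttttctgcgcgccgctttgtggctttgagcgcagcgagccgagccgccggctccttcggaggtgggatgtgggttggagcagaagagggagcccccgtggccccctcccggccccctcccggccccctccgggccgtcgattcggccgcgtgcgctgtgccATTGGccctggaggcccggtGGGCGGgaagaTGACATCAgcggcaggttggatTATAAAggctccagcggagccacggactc
Capitals mark matches to 4 short motifs, each searched on both strands. From left to right they are CCAAT read on the opposite strand, the GC box GGGCGG, the cAMP-type element TGACNTCA and the TATA box TATAAA. Matches to these motifs occur in 33.8%, 32.7%, 7.49% and 12.4% of the 32851 mouse promoter windows in the RefSeq table. The exact letters TGACGTCA and TGANTCA were not in this window. A match describes the letters and was not tested as a binding site.

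The end of the Nppc coding sequence, from the GENCODE M21 transcript on GRCm38, shows the site that furin-type enzymes cut.
Nppc coding end: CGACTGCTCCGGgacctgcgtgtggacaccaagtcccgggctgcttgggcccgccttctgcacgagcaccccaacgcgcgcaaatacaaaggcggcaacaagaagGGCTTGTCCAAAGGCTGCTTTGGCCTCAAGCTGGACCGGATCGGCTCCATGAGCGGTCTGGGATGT
The first capitals are the 4 codons of the cut site, which begins and ends with an arginine codon. The 53 codons after it encode the long form of CNP, and the last 22 codons, also in capitals, encode the short form. Codons 6 and 22 of the short form are cysteine codons, the pair that closes the ring bound by the receptors. The whole Nppc coding sequence has 126 codons, against 536 for Npr3, 1047 for Npr2 and 1057 for Npr1. Npr3, which encodes no cyclase domain, has the shortest reading frame of the 3 receptors.

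Levels are given as CPM, a gene's counts scaled to a common library size, with edgeR's TMM factors between libraries. Depth ran from 27.2 to 46.5 M counts per sample. Divided by the length that the deposited table lists for each gene, the mean level over all 12 samples was 38.8 CPM per kb for Furin and 25.6 CPM per kb for Npr2. Next in this order came Npr1 at 9.19, Prkg1 at 2.87, Nppc at 2.74, Npr3 at 0.809 and Prkg2 at 0.529 CPM per kb. Both signalling receptors were thus far more abundant than the clearance receptor, and the precursor protease was the most abundant transcript of the set. Furin lay at the 92.0th percentile of all tested genes by this measure, Npr2 at the 86.6th, and Prkg2 at the 15.8th. Prkg1 and Nppc were neighbours in the order, and their sample values overlapped. The same held for Npr3 and Prkg2.

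**Figure D1:**
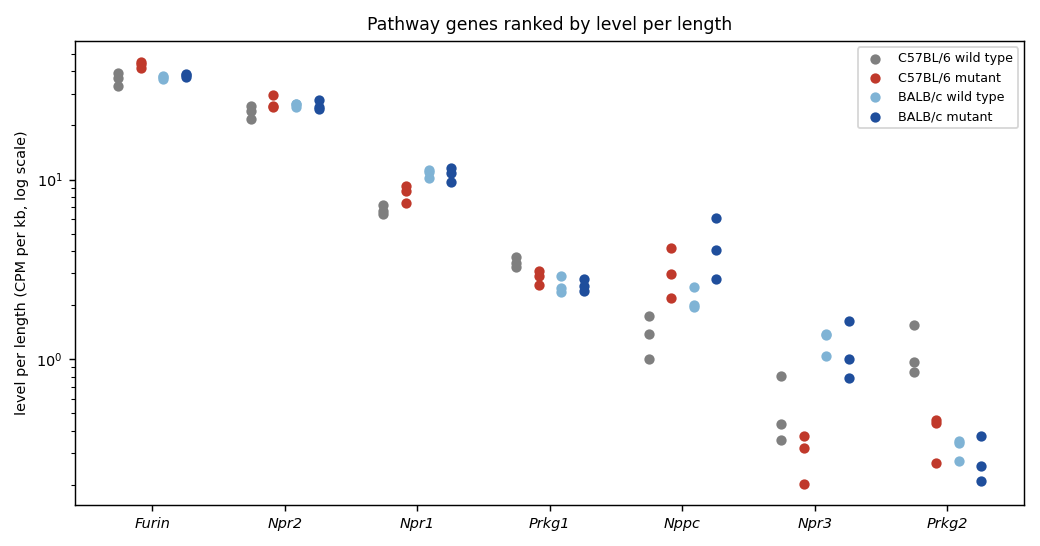
Level per length of each of the 7 genes (CPM per kb, log scale), 1 point per sample and 1 colour per group. Furin, Npr2 and Npr1 kept the same order in all 12 samples, while Nppc, Prkg1, Npr3 and Prkg2 had overlapping or changing positions below them.

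Nppc, the CNP gene (chromosome 1, 86666293 to 86670573, mm10), was a low-count transcript with 40 to 258 counts per sample. Its level was 1.04, 1.45 and 1.82 CPM in the 3 C57BL/6 wild type samples and 3.12, 2.28 and 4.31 CPM in the C57BL/6 mutants. Every mutant lay above every wild type sample. In BALB/c the wild type samples held 2.03, 2.10 and 2.64 CPM and the mutants 4.197, 2.93 and 6.35 CPM. Here too the groups did not overlap. The fitted difference between mutant and wild type was 2.25-fold in C57BL/6 (log2 1.17, SE 0.328) and 1.99-fold in BALB/c (log2 0.99, SE 0.322). These values chose the gene and are not offered as a test. Of all tested genes, 19.7% had mutants wholly above wild type in C57BL/6 and 9.93% in BALB/c.

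The choice of Nppc did not use the contrast between strains within a genotype. Wild type BALB/c samples lay above wild type C57BL/6 samples in all cases, but the log2 difference of 0.65 (SE 0.330) did not pass (adjusted p 0.123, edgeR). Of all genes, 27.3% had wild type BALB/c wholly above wild type C57BL/6 samples. Among mutants the log2 strain difference was 0.47 (SE 0.316, adjusted p 0.263, edgeR) and the groups overlapped. It was 0.14 without BALB/c mutant replicate 18 and 0.74 without C57BL/6 mutant replicate 6, and passed in neither fit. The genotype effect in BALB/c minus that in C57BL/6 is built from the same samples as the values that chose the gene. It was a log2 value of -0.18 (SE 0.455), given as a description with no test. In the authors' deposited table the log2 fold change of Nppc was 0.888 in C57BL/6 and 0.875 in BALB/c. Ranked over samples, mutant replicates 6 (C57BL/6) and 18 (BALB/c) held the highest Nppc level of their strain.

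**Figure D2:**
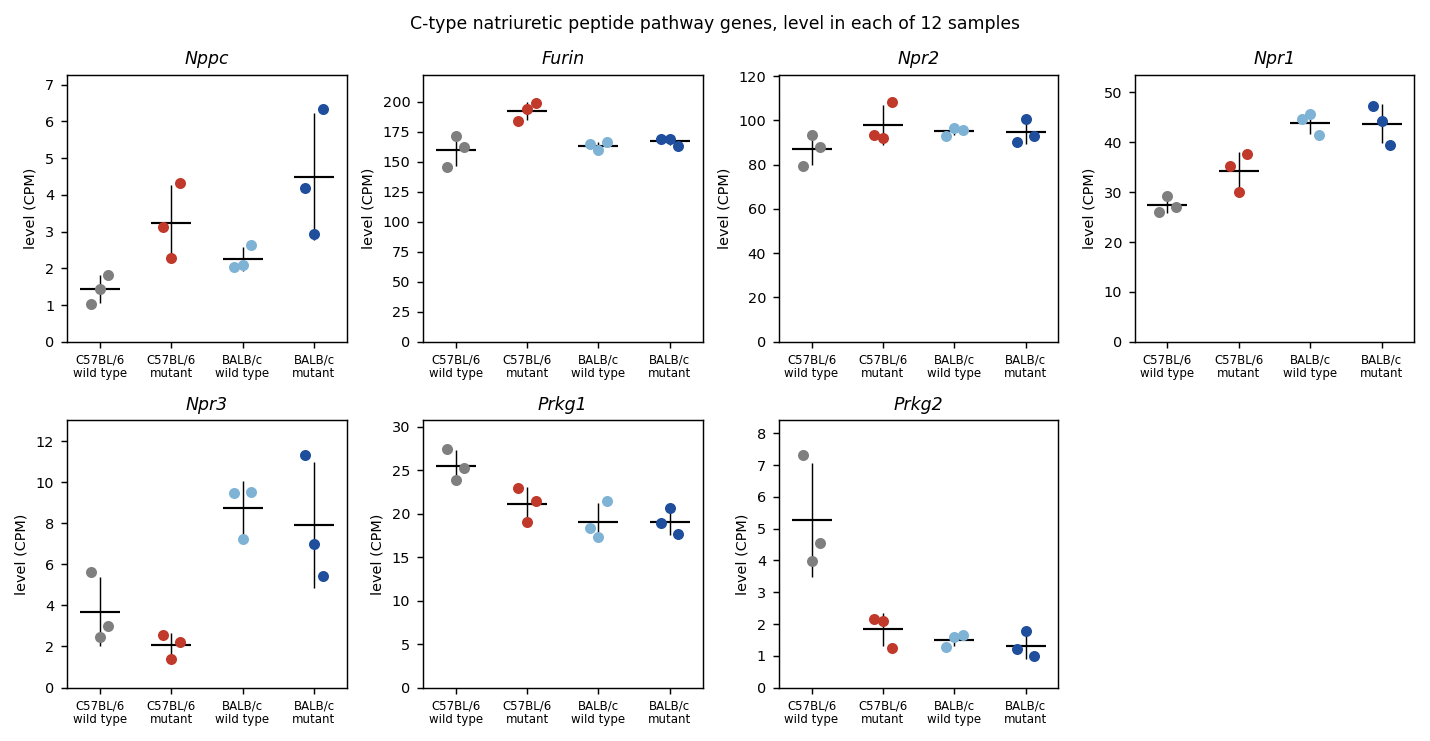
Level of each gene in CPM (vertical axes from 0) in the 12 samples by group; points are samples, horizontal bars are means and vertical bars are 1 SD (n = 3). Nppc is higher in the mutants of both strains, Prkg2 is high in the C57BL/6 wild type samples, and Npr3 is high in both BALB/c groups.

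Furin encodes the protease that cuts the CNP precursor at the site printed above (chromosome 7, 80389194 to 80405431). C57BL/6 wild type samples held 145, 171 and 162 CPM and mutants 184, 194 and 199 CPM, with no overlap. Furin rose in the C57BL/6 mutants, by a log2 difference of 0.27 (SE 0.063, adjusted p 0.0122, edgeR). In BALB/c the wild type samples held 164, 160 and 166 CPM and the mutants 169, 169 and 163 CPM. The groups overlapped and the log2 difference was 0.03. BALB/c mutants had less Furin than C57BL/6 mutants (log2 -0.20, SE 0.063, adjusted p 0.0266, edgeR). That strain difference did not pass without C57BL/6 mutant replicates 5 or 6 or without any 1 of the BALB/c mutants. It also missed the threshold with total counts (log2 -0.08, adjusted p 0.206), with no filter on low counts (adjusted p 0.0537) and with a chondrocyte score as a covariate (adjusted p 0.110, edgeR). The C57BL/6 genotype difference was 0.08 on the log2 scale (adjusted p 0.255, edgeR) when libraries were scaled by total counts, a scaling that lowered the median of all genes by 0.20 in this comparison. It also missed the threshold without mutant replicate 6 (adjusted p 0.0537, edgeR).

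Npr2 encodes the CNP receptor itself (chromosome 4, 43631935 to 43651240). Its level was the steadiest of the set, at 79.4, 93.6 and 87.8 CPM in C57BL/6 wild type and 93.6, 92.1 and 108 CPM in C57BL/6 mutant samples. The groups overlapped, with a log2 difference of 0.17 (SE 0.076, adjusted p 0.113, edgeR). BALB/c wild type samples held 93.2, 96.8 and 95.7 CPM and BALB/c mutants 90.4, 101 and 92.9 CPM, a log2 difference of -0.01 (95% interval -0.17 to 0.16). The group means of Npr2 differed by at most 1.13-fold, whereas those of Npr3 differed by up to 4.24-fold and those of Nppc by up to 3.13-fold. In the authors' deposited table the C57BL/6 difference of Npr2 was 0.185 on the log2 scale with a q-value of 0.0370, so that its call depended on the analysis. Neither strain comparison passed for Npr2 (adjusted p 0.172 in wild type and 0.644 in mutants, edgeR).

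Npr1 encodes the receptor for the atrial and brain peptides (chromosome 3, 90450592 to 90465866). It was 26.03, 29.3 and 27.1 CPM in C57BL/6 wild type samples and 35.2, 30.1 and 37.6 CPM in the mutants. All mutants lay above all wild type samples, and Npr1 rose, by a log2 difference of 0.32 (SE 0.091, adjusted p 0.0260, edgeR). This call was lost without wild type replicate 1 (adjusted p 0.0701), wild type replicate 3 (adjusted p 0.0604) or mutant replicate 6 (adjusted p 0.112), and with total counts (log2 0.13, adjusted p 0.338, all edgeR). In the authors' deposited table the C57BL/6 difference of Npr1 was 0.292 with a q-value of 0.155. BALB/c levels were higher throughout, at 44.6, 45.8 and 41.5 CPM in wild type and 47.3, 44.3 and 39.5 CPM in mutants. The 2 BALB/c groups overlapped. The strain difference of Npr1 was 0.68 on the log2 scale in wild type (SE 0.091, adjusted p 0.000143) and 0.35 in mutants (SE 0.090, adjusted p 0.00961, edgeR). The authors' deposited table gives the mutant comparison, there C57BL/6 minus BALB/c, as -0.306 with a q-value of 0.103.

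Npr3, the clearance receptor gene (chromosome 15, 11839897 to 11905674), had the largest strain difference of the 7 genes among mutants. C57BL/6 wild type samples held 5.61, 2.47 and 3.00 CPM and mutants 2.58, 1.41 and 2.21 CPM. Wild type replicate 1 stood above the rest, and the groups overlapped (log2 -0.84, SE 0.350, adjusted p 0.0977, edgeR). In BALB/c the wild type samples held 9.47, 7.23 and 9.55 CPM and the mutants 11.3, 6.97 and 5.41 CPM, so that the mutants spanned the wild type range (log2 -0.15, SE 0.334). The 11.3 CPM came from replicate 16, a library with 428 CPM of skeletal muscle markers and 547 CPM of glial and neuronal markers against at most 26.7 and 28.5 CPM in the other BALB/c mutants. Without it the log2 difference was -0.49 (adjusted p 0.706, edgeR). Npr3 was 2.36-fold higher in BALB/c than in C57BL/6 wild type samples (log2 1.24, SE 0.343, adjusted p 0.0109, edgeR). Among mutants it was 3.82-fold higher in BALB/c (log2 1.93, SE 0.353, adjusted p 0.00125, edgeR), and the log2 difference was 1.59 (adjusted p 0.00568) without replicate 16. In this bulk tissue a change in the number of cells that make a transcript and a change in its amount per cell cannot be told apart, for Npr3 and for the other genes.

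The balance of the receptors followed Npr3. Per length, Npr2 exceeded Npr3 by a mean ratio of 51.3 in C57BL/6 wild type samples (26.8 to 71.8) and 95.2 in C57BL/6 mutants (68.9 to 124). In BALB/c the mean ratio was 21.01 in wild type (18.6 to 25.4) and 25.0 in mutants (15.1 to 32.5). Each C57BL/6 mutant thus had more Npr2 per Npr3 than any BALB/c sample. The ratio of Npr2 to Npr1 was narrower, at 3.52, 3.19, 2.41 and 2.42 on average in the same order of groups.

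**Figure D3:**
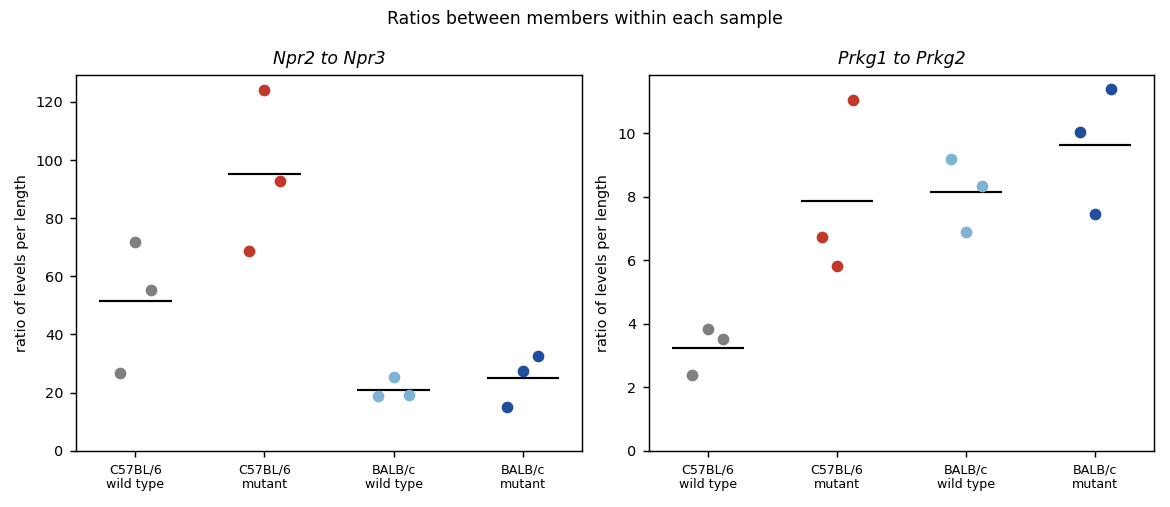
Ratio of Npr2 to Npr3 and of Prkg1 to Prkg2 (levels per length, vertical axes from 0) in each sample, with group means as bars. The receptor ratio is highest in the C57BL/6 mutants (mean 95.2), and the kinase ratio is lowest in the C57BL/6 wild type samples (mean 3.25).

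Prkg1 encodes the type I cGMP-dependent kinase, best known from smooth muscle (chromosome 19, 30564487 to 31765033). Its row is overlapped by 4 other rows of the table, and no strand setting was given, so some of its reads may belong to them. It was 27.4, 23.9 and 25.2 CPM in C57BL/6 wild type and 22.9, 19.0 and 21.5 CPM in C57BL/6 mutant samples. The groups did not overlap, but the log2 difference of -0.27 (SE 0.099) did not pass (adjusted p 0.0634, edgeR). It passed with limma-voom (adjusted p 0.0464), without mutant replicate 4 (adjusted p 0.0334, edgeR) and with total counts (log2 -0.47, adjusted p 0.0185, edgeR). BALB/c wild type samples held 18.4, 17.4 and 21.5 CPM and BALB/c mutants 18.9, 20.7 and 17.6 CPM, and these overlapped. Wild type BALB/c samples had less Prkg1 than wild type C57BL/6 samples (log2 -0.42, SE 0.0997, adjusted p 0.00481, edgeR). This call was lost with a chondrocyte (log2 -0.25, adjusted p 0.111), ciliated (-0.09, 0.837) or erythroid score (-0.31, 0.145) as a covariate (all edgeR).

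Prkg2 encodes the type II kinase, which transmits the CNP signal in growth plate chondrocytes (chromosome 5, 98929773 to 99037079). It had the largest differences of the 6 genes tested between genotypes. C57BL/6 wild type samples held 7.33, 3.97 and 4.56 CPM and the mutants 2.17, 2.09 and 1.24 CPM, with no overlap. Prkg2 fell in the C57BL/6 mutants to 0.347 of the wild type level (log2 -1.53, SE 0.309, adjusted p 0.00604, edgeR). The call held in all 12 fits that each left out 1 sample, with adjusted p-values from 0.00368 to 0.0291 (edgeR). In BALB/c it was low in both genotypes, at 1.28, 1.61 and 1.64 CPM in wild type and 1.199, 1.77 and 0.984 CPM in mutants (log2 -0.19, SE 0.317), and the groups overlapped. The wild type BALB/c samples lay inside the range of the C57BL/6 mutants. The strain difference was -1.81 in wild type (SE 0.316, adjusted p 0.000807) and -0.47 in mutants (SE 0.313, adjusted p 0.258, edgeR).

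The difference between the 2 genotype effects of Prkg2 was a log2 value of 1.33 (SE 0.441), which did not pass over all genes (adjusted p 0.0730, edgeR). It passed with DESeq2 (adjusted p 0.0329) and without C57BL/6 mutant replicate 4 (adjusted p 0.0441, edgeR). Prkg2 counts in BALB/c were only 34 to 82 per sample, which limits the precision there. The ratio of Prkg1 to Prkg2 per length averaged 3.25 in C57BL/6 wild type samples, 7.86 in C57BL/6 mutants, 8.13 in BALB/c wild type samples and 9.63 in BALB/c mutants. The C57BL/6 wild type range of 2.38 to 3.83 lay below all other samples.

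Counted over the members, 3 of the 6 genes other than Nppc passed between genotypes in C57BL/6 (Furin and Npr1 higher, Prkg2 lower), against 23.9% of all genes tested. Sample ranges of the genotypes did not overlap in C57BL/6 for 4 of these 6 genes, Furin, Npr1, Prkg1 and Prkg2, against 41.6% of all genes. In BALB/c 0 of 6 passed by edgeR, DESeq2 or limma-voom, against 0.136% of all genes passing by edgeR. An unadjusted p-value under 0.05 was found for 0 of 6, against 11.7% of all genes. Ranges did not overlap in BALB/c for 0 of these 6, against 20.0% of all genes. Between wild type strains 4 of 7 passed (Npr1 and Npr3 higher in BALB/c, Prkg1 and Prkg2 lower), against 48.5% of all genes. Between mutants of the 2 strains 3 of 7 passed, Npr1 and Npr3 higher and Furin lower in BALB/c, against 36.9%. The interaction passed for 0 of the 6 genes other than Nppc by edgeR, against 5.46% of all genes passing in the positive and 4.58% in the negative direction. Furin, Npr1 and Prkg2 had an unadjusted interaction p-value under 0.05 (3 of 6), against 29.5% of all genes. DESeq2 called 1 of 6, Prkg2, and limma-voom 0. The genotype effect averaged over strains passed for 1 of 6, Prkg2 (log2 -0.86, adjusted p 0.0359, edgeR), against 7.99% of all genes. It was lost with limma-voom (adjusted p 0.0538) and in 8 of 12 fits that left out 1 sample (adjusted p up to 0.0942), namely any 1 BALB/c wild type sample, BALB/c mutant replicates 16 or 18, C57BL/6 mutant replicates 5 or 6, or C57BL/6 wild type replicate 1. These comparisons share samples and are not independent of each other.

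**Figure D4:**
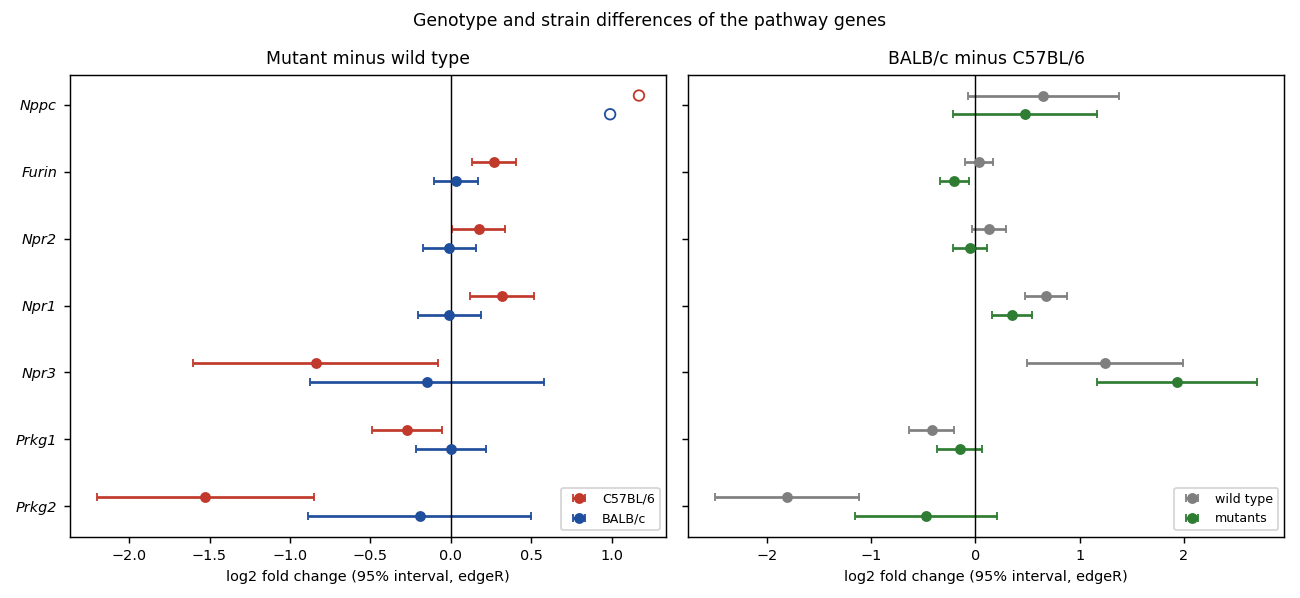
Log2 fold changes of the 7 genes for mutant minus wild type (left, by strain) and BALB/c minus C57BL/6 (right, by genotype), with 95% intervals from edgeR that are not adjusted for multiple tests; open points for Nppc carry no interval because these values chose the gene. In C57BL/6 the unadjusted intervals of all 6 tested genes leave out 0 (39.2% of all genes had an unadjusted p-value under 0.05), of which Furin, Npr1 and Prkg2 passed after adjustment; in BALB/c all 6 cross 0, and Npr1 and Npr3 are higher in BALB/c in both genotypes.

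Marker transcripts of several cell types differed between the groups alongside these genes. In C57BL/6, 11.3% of all genes were called higher and 12.6% lower in mutants, the background for the marker counts that follow. Summed levels of 12 chondrocyte markers ran from 9009.9 to 11032 CPM in C57BL/6 wild type and from 3687 to 6792 CPM in C57BL/6 mutant samples, as Prkg2 did in direction, and 4 of the 12 fell. BALB/c wild type samples summed to 3741 to 4970.2 CPM and BALB/c mutants to 4473 to 9626 CPM, and none of the markers of this list was at 0 in any group. BALB/c mutant replicate 17 had 9626 CPM of these markers and 1.77 CPM of Prkg2, both the highest values of the BALB/c samples. With a chondrocyte score (the mean log2 CPM of the list) as a covariate the C57BL/6 log2 difference of Prkg2 was -0.87 and did not pass (adjusted p 0.432, edgeR), and genotype alone held 66.5% of the variance of that score in C57BL/6. Osteoblast markers summed to 67482 to 115872 CPM in C57BL/6 wild type and 129106 to 154505 CPM in C57BL/6 mutants, and 8 of 10 rose. The low end was wild type replicate 1 alone, which also had 794 CPM of nasal markers against 372 and 374 CPM, and the highest Prkg2 and Npr3 levels of its group. Without it, in C57BL/6, Prkg2 still passed (adjusted p 0.0269, edgeR) and the log2 difference of Npr3 was -0.39 (adjusted p 0.440, edgeR). Osteoclast markers summed to 3471 to 4239.8 CPM in C57BL/6 wild type and 7311 to 8152 CPM in C57BL/6 mutants, and 7 of 7 rose, alongside Furin, Npr1 and Nppc. Endothelial markers, a list relevant to Npr1, summed to 463 to 552 and 587 to 754 CPM in the same groups, with 3 of 8 higher. Erythroid markers went the other way, at 210 to 277 CPM in C57BL/6 wild type and 56.4 to 86.5 CPM in C57BL/6 mutants, and 7 of 7 fell. Neutrophil markers fell for 5 of 8 in the same comparison. In BALB/c, where 0.136% of all genes were called in either direction, erythroid markers differed too. They summed to 241 to 354 CPM in wild type and 461 to 558 CPM in mutants, with 2 of 7 called higher. Neutrophil markers there summed to 561 to 659 and 789 to 865 CPM, with 0 of 8 called. Neither summed list overlapped between the BALB/c genotypes. Taken singly, 20.0% of all genes did not overlap in that comparison. In C57BL/6, smooth muscle markers, relevant to Prkg1, summed to 370 to 426 CPM in wild type and 300 to 323 CPM in mutants. Of these, 1 of 7 was lower. In BALB/c they summed to 354 to 377 CPM in wild type and 300 to 534 CPM in mutants, overlapping, with 0 of 7 called. The part of these markers in the differences of the pathway genes was not tested.

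Y-linked transcripts were high in all 3 C57BL/6 wild type samples and in 1 sample of each other group, namely C57BL/6 mutant replicate 6 and BALB/c replicates 15 (wild type) and 16 (mutant). With a Y-linked score as a covariate the C57BL/6 log2 differences were 0.29 for Furin, 0.19 for Npr2, 0.37 for Npr1 and -1.66 for Prkg2, each larger than without it. Those of Npr3 (-0.59) and Prkg1 (-0.21) were smaller than without it. The part of this imbalance in the differences was not tested further.

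Around the 7 genes, 41 further genes of natriuretic peptide and cGMP signalling were read in 5 lists, which were drawn up with earlier results of these data known. Of these, 39 passed the filter. Nppb, the brain peptide gene, had 2 counts in 1 sample and 0 in the other samples, and the photoreceptor channel gene Cnga1 had 0. Nppa, the atrial peptide gene, was between 0.120 and 0.376 CPM. Per length, Nppc was above both in every sample. In C57BL/6, 4 of the 39 genes rose in mutants (against 11.3% of all genes), 5 fell (against 12.6%) and 30 did not pass (edgeR), with a median log2 difference of 0.04 against 0.00 over all genes. In BALB/c 0 of 39 passed by edgeR, against 0.136% of all genes, 1 by DESeq2 and 0 by limma-voom. At an unadjusted p-value under 0.05 there were 6 of 39, against 11.7% of all genes.

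Among the tested genes of the other ligands and of the proteases that process or degrade the peptides, 1 of 6 rose and 2 fell in C57BL/6, against 11.3% and 12.6% of all genes. Mme, which encodes neprilysin, a protease that degrades natriuretic peptides, rose from 72.1, 71.1 and 65.7 CPM to 115, 128 and 148 CPM. The groups did not overlap (log2 0.91, SE 0.104, adjusted p 0.000352, edgeR). BALB/c samples held 49.95 to 61.5 CPM in wild type and 54.4 to 66.4 CPM in mutants, overlapping, and the genotype effect of Mme differed between strains (log2 -0.75, SE 0.148, adjusted p 0.0124, edgeR). Corin, the protease that activates the atrial peptide, fell from 10.5, 5.600 and 6.81 CPM to 3.75, 1.12 and 1.45 CPM in C57BL/6 (log2 -1.85, SE 0.416, adjusted p 0.00971, edgeR), a call lost in a fit of only the C57BL/6 samples (adjusted p 0.0617). Ece1, the endothelin-converting protease, fell in the average over strains (log2 -0.24, SE 0.052, adjusted p 0.0210, edgeR), a call lost in 5 of 12 fits that left out 1 sample (C57BL/6 mutants 5 and 6, BALB/c wild type 13, BALB/c mutants 17 and 18, adjusted p up to 0.0623). Ostn encodes osteocrin, a bone-derived ligand of the clearance receptor, and did not pass between genotypes in either strain. Its means were 16.7 and 17.5 CPM in C57BL/6 wild type and mutant samples and 27.2 and 20.4 CPM in those of BALB/c. It was named here after its values were seen, for its link to Npr3.

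Of 10 phosphodiesterases that break down cGMP, 1 rose and 1 fell in C57BL/6, close to the 11.3% and 12.6% of all genes. Pde1a rose from 13.5 to 14.3 CPM in wild type to 18.7 to 27.1 CPM in mutants (log2 0.72, SE 0.149, adjusted p 0.00662, edgeR). Pde1c fell from 12.3, 6.93 and 8.79 CPM to 4.29, 1.36 and 1.29 CPM (log2 -2.01, SE 0.424, adjusted p 0.00735, edgeR), lost in a fit of only the C57BL/6 samples (adjusted p 0.0562). In BALB/c Pde1c was 1.36 to 1.73 CPM in wild type and 1.56 to 2.58 CPM in mutants, overlapping, and its interaction passed (log2 2.34, SE 0.604, adjusted p 0.0346, edgeR). The interaction of Pde1c did not pass in 9 of 12 fits that left out 1 sample. None of 8 other genes that make cGMP or nitric oxide passed between genotypes in C57BL/6 by edgeR, and 1 each by DESeq2 and limma-voom. At an unadjusted p-value under 0.05 there was 1 of 8, against 39.2% of all genes.

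Of 7 tested targets and channels of cGMP, 2 fell in C57BL/6, against 12.6% of all genes. Hcn2, a cation channel that cyclic nucleotides modulate, had a log2 difference of -1.496 (SE 0.385, adjusted p 0.0175, edgeR). Mrvi1, a substrate of the type I kinase, fell by 0.93 on that scale (SE 0.280, adjusted p 0.0328, edgeR). Both calls were lost without C57BL/6 wild type replicate 1 (Hcn2 adjusted p 0.0815; Mrvi1 log2 -0.56, adjusted p 0.158), mutant replicate 5 (0.0632 and 0.113) or mutant replicate 6 (0.0735 and 0.0954, edgeR), and in a fit of only the C57BL/6 samples (0.0845 and 0.0934). That of Mrvi1 was also lost with a Y-linked score as a covariate (adjusted p 0.0807). Epithelial transcripts moved with these genes: 8 ciliated cell markers summed to 37.0 to 43.4 CPM in C57BL/6 wild type and 21.001 to 23.7 CPM in C57BL/6 mutants. Nasal secretory and olfactory markers summed to 372 to 794 and 6.11 to 183 CPM, the 183 in mutant replicate 4, which also held the most Corin, Pde1c and Hcn2 of the mutants. Of these lists 4 of 8 and 3 of 8 genes fell, and no gene of either was at 0 in a C57BL/6 group. With a ciliated score as a covariate the log2 differences in C57BL/6 were 0.01 for Corin, 0.26 for Hcn2 and 0.54 for Mrvi1. That of Pde1c was -0.22 in this fit (adjusted p 0.978, edgeR). Genotype alone held 81.3% of the variance of the ciliated score in C57BL/6. The part of these cells in the differences was not tested.

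In the branch of FGF receptor signalling that CNP opposes, 2 of 8 genes rose in C57BL/6 and 0 fell, against 11.3% and 12.6% of all genes. Fgfr2, the mutated gene, rose from 249 to 361 CPM on average in C57BL/6 (log2 0.54, SE 0.100, adjusted p 0.00405, edgeR). In BALB/c it was 269 to 290 CPM in wild type and 271 to 318 CPM in mutants, overlapping, and did not pass by edgeR. Snai1, a transcription factor induced by FGF signalling, was 36.1 to 41.2 CPM in C57BL/6 wild type and 48.6 to 52.0 CPM in mutants (log2 0.40, SE 0.076, adjusted p 0.00455, edgeR), a call lost with total counts (log2 0.20, adjusted p 0.0873). In BALB/c Snai1 overlapped between genotypes, at 34.6 to 42.2 and 35.4 to 37.7 CPM, and the 2 effects differed (log2 -0.48, SE 0.107, adjusted p 0.0203, edgeR). The receptor gene Fgfr3 did not pass in either strain.

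Between the strains more of these genes differed than between genotypes in C57BL/6. The same was true of all genes (48.5% in wild type and 36.9% in mutants, against 23.9%). In wild type 6 of the 39 were higher and 14 lower in BALB/c (median log2 -0.18), against 22.8% and 25.6% of all genes. In mutants 12 differed, 3 higher and 9 lower (median log2 -0.21), against 36.9%. The median of all genes was 0.00 in both comparisons. The phosphodiesterases contributed 1 higher and 5 lower of 10 in wild type, and the cGMP targets 1 higher and 4 lower of 7. Marker lists of other cell types moved with them between wild type strains: nasal and olfactory markers were lower in BALB/c for 8 of 8 genes, ciliated for 5 of 8, chondrocyte for 5 of 12 and glial and neuronal for 4 of 8, and neutrophil and erythroid markers were higher for 5 of 8 and 5 of 7. Between mutants, erythroid (7 of 7), neutrophil (8 of 8) and skeletal muscle markers (7 of 8) were higher in BALB/c. Osteoclast (6 of 7) and nasal and olfactory markers (5 of 8) were lower, and of 10 osteoblast markers 6 were lower and 2 higher. The part of these marker lists in the counts was not tested. As strain and flow cell coincide, these counts describe the samples and not the strains alone.

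Patterns over the 12 samples were compared as correlations of log2 CPM, which are descriptions across samples that share strain, flow cell and genotype. Nppc and Prkg2 ran in opposite directions (Pearson r -0.841, n = 12), and r was -0.704 (n = 10) without the 2 samples farthest from the median of Nppc. The values of -0.841 and -0.704 include the Nppc genotype difference that chose the gene. The correlation of their deviations from the group means was -0.774. Npr1 and Prkg2 were as opposed over the samples (r -0.854, n = 12), less so within groups (-0.342). Prkg1 and Prkg2 ran together (r 0.866, n = 12), less so within groups (0.472). Furin and Npr2 varied together within groups (0.722).

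**Figure D5:**
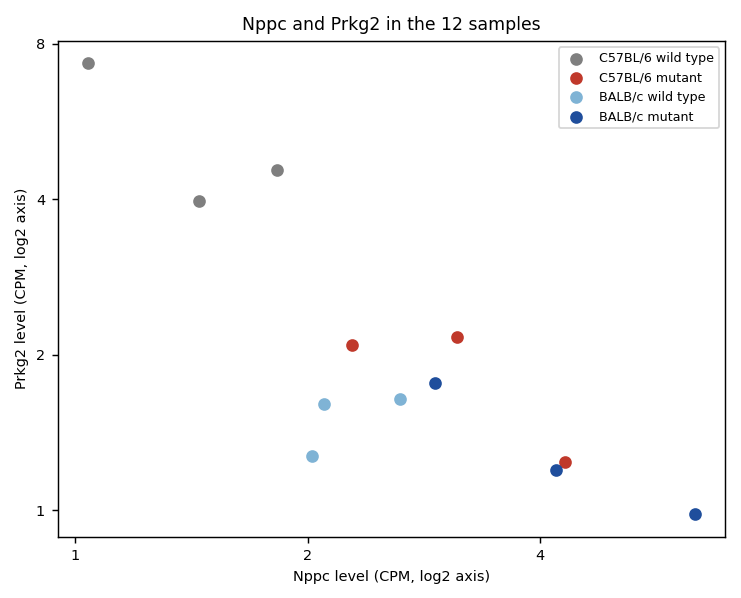
Nppc level against Prkg2 level (CPM, both axes on a log2 scale) in the 12 samples, coloured by group. The C57BL/6 wild type samples lie at the upper left (low Nppc, high Prkg2), and BALB/c mutant replicate 18, with 6.35 CPM of Nppc and 0.984 CPM of Prkg2, lies at the lower right.

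The gene whose level was most like that of Nppc was Flt3l (r 0.972 over 12 samples, among 12873 genes with at least 1 CPM on average), followed by Chst13 (0.900) and Fam100a (0.897). By deviations from the group means the order was Zfp295 (0.928), Flt3l (0.908) and Ccdc9 (0.902). For Npr2 the most alike were Rin2 (0.935), Golga2 (0.906) and Rufy1 (0.903), and by deviations Rin2 (0.963), Inppl1 (0.955) and Mrc1 (0.940). For Npr3 they were Ngrn (0.979), Tmem181c-ps (0.978) and Mpst (0.972), and by deviations Adap1 (0.977), Cdc42ep4 (0.970) and Rnd2 (0.956). Flt3l and Rin2 appeared by both measures, whereas the genes most like Npr3 over all samples, which include its strain difference, were not those most like it within groups.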

How the data were processed

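RNA sequencing of 12 samples (4 groups of 3) was analysed from the authors' deposited table of raw gene counts, with each sample's group taken from its label. Per the submitters' processing notes, the reads went through bcl2fastq, TopHat2 2.0.6, HTSeq and DESeq2, with build mm10. The annotation and strand setting are not given in the sources used here. All deposited counts are even (0 odd values), so counts halved served as an alternative added after seeing the data. The authors' RPKM columns were not used. The gene length in the deposited table, 1042 bases for Nppc, equals the whole GENCODE M21 transcript. The authors' deposited comparison table, with log2 changes and q-values (and p-values) from DESeq2, is quoted only where named.

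The unchanged counts were fitted in R 4.3.3 by edgeR 4.0.16, with filterByExpr (minimum count 10, minimum total 15), TMM scaling, a quasi-likelihood model with 4 group means over 12 samples, and Benjamini-Hochberg adjustment over 16190 genes, called under 0.05. Standard errors follow from the F statistic. The fit was tested on simulated data. Alternatives were DESeq2 1.42.0, limma-voom 3.58.1, other scaling and filters, fits of only the groups compared, marker scores (mean log2 CPM of a list) as covariates and leaving out each sample. Log2 CPM for correlations used a prior count of 2. No 2 samples held identical counts. No replicate number occurs in more than 1 group, which leaves nothing to pair.

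The 7 members, the 5 pathway lists and the marker lists were chosen with earlier results of these data known. Named were all members, the pathway genes passing in a genotype comparison (at most the 8 with the largest change) and the 3 genes most correlated with Nppc, Npr2 and Npr3, with predicted names skipped. The remaining genes named were picked for their role. Of the members, 6 had an entry in the RefSeq promoter table. Count-based limits cover counting error only.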

Additional observations from a re-analysis of the deposited data

Results flagged for a closer look

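In 3 pathway genes outside the 7 members the genotype effect differed between the strains by the interaction test (edgeR, adjustment over all genes). For Mme the effect in BALB/c minus that in C57BL/6 was -0.75 on the log2 scale (adjusted p 0.0124), and no single sample decided the call, which was lost with total counts (log2 -0.51, adjusted p 0.0515). For Pde1c it was 2.34 (adjusted p 0.0346), lost in 9 of 12 fits that left out 1 sample. For Snai1 it was -0.483 (adjusted p 0.0203), lost without C57BL/6 mutant replicate 6 (adjusted p 0.0565) and with total counts (log2 -0.26, adjusted p 0.161). All 3 calls were also lost with each of 3 marker scores as a covariate, although the size of the difference fell in some of these fits and grew in others. Mme was -0.55 (adjusted p 0.295) with the chondrocyte, -0.45 (0.732) with the ciliated and -1.22 (0.696) with the erythroid score. Pde1c was 0.80 (0.549), 0.47 (0.942) and 7.04 (0.451) in the same order, and Snai1 was -0.53 (0.184), -0.50 (0.609) and -0.38 (0.910).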

How the results depend on the processing

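No paired analysis was possible because the groups share no replicate numbers. Of the member values past the threshold, 11 in all, 0 had the opposite sign under any alternative. Of the 28 not past it, 19 changed sign under at least 1. Both of these counts include the interaction of Nppc, which is only a description here. Of the 6 members tested between genotypes in C57BL/6, 3 passed, against 1 in a fit of only those groups (Furin adjusted p 0.0851, Npr1 0.0900, edgeR) and 0 with the chondrocyte, ciliated or erythroid score as a covariate, of whose variance genotype held 66.5%, 81.3% and 95.5%. In those fits, in the same order, the log2 differences were 0.20, 0.07 and 0.26 for Furin, 0.35, 0.45 and 0.17 for Npr1, and -0.87, -0.85 and -1.94 for Prkg2, so that some lost calls kept or exceeded their size. Between wild type strains 4 passed, and 2 with the ciliated or the erythroid score. Between mutants 3 passed, and 0 with the erythroid score. The interaction passed for 0, and for 1 with DESeq2. Averaged over strains 1 passed, against 2 with DESeq2 and 0 with limma-voom or the Y-linked, chondrocyte, ciliated or erythroid score. Of the other pathway genes 9 passed in C57BL/6, against 1, 0 and 0 with the chondrocyte, ciliated and erythroid scores. With the ciliated score Corin (0.0136), Hcn2 (0.261) and Mrvi1 (0.543) reversed without passing. The cause was not tested. Leaving out 1 sample gave 1 to 4 members in C57BL/6, 0 to 0 in BALB/c, 4 to 4 and 2 to 3 between strains, 0 to 1 for the interaction, 0 to 2 averaged, and 7 to 11 other pathway genes. Prkg2 lost its averaged call in 8 of 12 such fits. The Nppc difference, which chose the gene, was 0.70 to 1.38 in C57BL/6 and 0.66 to 1.23 in BALB/c (log2) over all alternatives and these fits. Total counts called 616 genes higher and 4064 lower in C57BL/6, against 1835 and 2032 with TMM. Counts under 100 for Nppc and Prkg2 in several samples limit their precision.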

Other observations

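Pde3a, a phosphodiesterase that cGMP inhibits, was picked out after its values were seen. Its C57BL/6 mutants (5.44 to 5.72 CPM) lay below the wild type samples (5.84 to 7.83 CPM), and its BALB/c mutants (4.32 to 4.97 CPM) lay above theirs (3.21 to 3.76 CPM). The interaction was 0.63 on the log2 scale and did not pass (adjusted p 0.0720, edgeR). Of all genes, sample ranges of the genotypes did not overlap, in either direction, for 41.6% in C57BL/6 and 20.0% in BALB/c.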
